A study of Caenorhabditis elegans with 16 samples.

Results

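The comparison described here sets the 8 libraries labelled as replicate 2 against the 8 labelled as replicate 1, out of 16 poly-A RNA-seq libraries of whole day 1 adult *C. elegans*. The members were chosen from the replicate number in the sample titles, and each replicate 2 library was paired with the replicate 1 library of the same strain and temperature, which gave 8 pairs. The strains were wild type (wt, N2), the single mutant *ets-4(rrr16)*, and a pair of double mutants that carried this allele with either *daf-16(mu86)* or *pqm-1(ok485)*, so that every strain other than wt was mutant for *ets-4*. The double mutants are written *pqm-1; ets-4* and *daf-16; ets-4*. Of each strain, 2 libraries came from animals kept at 20 °C and 2 from animals that spent 24 h at 4 °C after an adaptation of 2 h at 10 °C. A library was made from about 1000 pooled animals, all of them fed the *E. coli* strain OP50. The labels say neither what libraries of the same number share, such as a day, a culture or a preparation, nor whether the 20 °C and 4 °C libraries of a strain and number came from the same culture. If a number stands for 1 shared batch, there is only 1 unit on each side, and the p-values measure only how evenly the 8 pairs differ.

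The library totals overlapped between the replicates: 36049588 to 48770269 counted reads (median 39544338.5) in the replicate 2 libraries, and 32046029 to 44094989 (median 36825265) in the replicate 1 libraries. Values are given as CPM, which scales each count by the library total after TMM adjustment (edgeR's cpm function), and a log2 fold change is replicate 2 over replicate 1. A gene was called at an adjusted p under 0.05 from edgeR's quasi-likelihood test, with strain and temperature as the pairing, and standard errors are the approximate ones that follow from its F statistic. Whole animals were sequenced, so that fewer cells of a type and less RNA per cell cannot be told apart.

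An adult hermaphrodite is a female animal that first makes a limited store of sperm. The germline makes sperm in the last larval stage and then switches for good to oocytes. Oocytes fill with yolk that the intestine makes, and they carry maternal mRNA for the embryo. The cuticle is rebuilt at each larval molt from collagens that are transcribed in waves, of which only some belong to the adult.

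The replicate 2 libraries held more sperm and intestinal transcripts and slightly less oocyte and germline mRNA than the replicate 1 libraries, and many scarce cuticle collagen genes were higher in them. Of the 15775 genes that passed the filter on low counts, 3452 (21.9%) were called higher and 2798 (17.7%) lower in replicate 2. These percentages are the background for the counts of the paired fit over all 16 libraries. A count from another scaling, tool, temperature or set of pairs is to be read against the totals of its own fit. Most differences were small: 1444 of the genes called higher and 41 of those called lower differed at least 2-fold. The split between both directions rests on the scaling, since with library totals in place of TMM 4074 genes were called higher and 741 lower, and the median of all genes moved to 0.11 from 0.04 on the log2 scale. With counts thinned to the smallest library total, 3174 genes were called higher and 3098 lower. The *pqm-1; ets-4* pairs carried much of the difference, since without them 1839 genes were called higher and 1227 lower. Without the *ets-4* pairs, 2423 genes were called higher and 1762 lower. In single pairs, 708 to 2148 genes were at least 2-fold higher in replicate 2, and 61 to 230 at least 2-fold lower. The replicate number accounted for 8.47% of the variance of log2(CPM + 1) over all tested genes, against 60.5% for the temperature and 20.4% for the strain. The largest differences lay among genes of low and middle expression, as the plot of fold change against level shows.

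**Figure D1:**
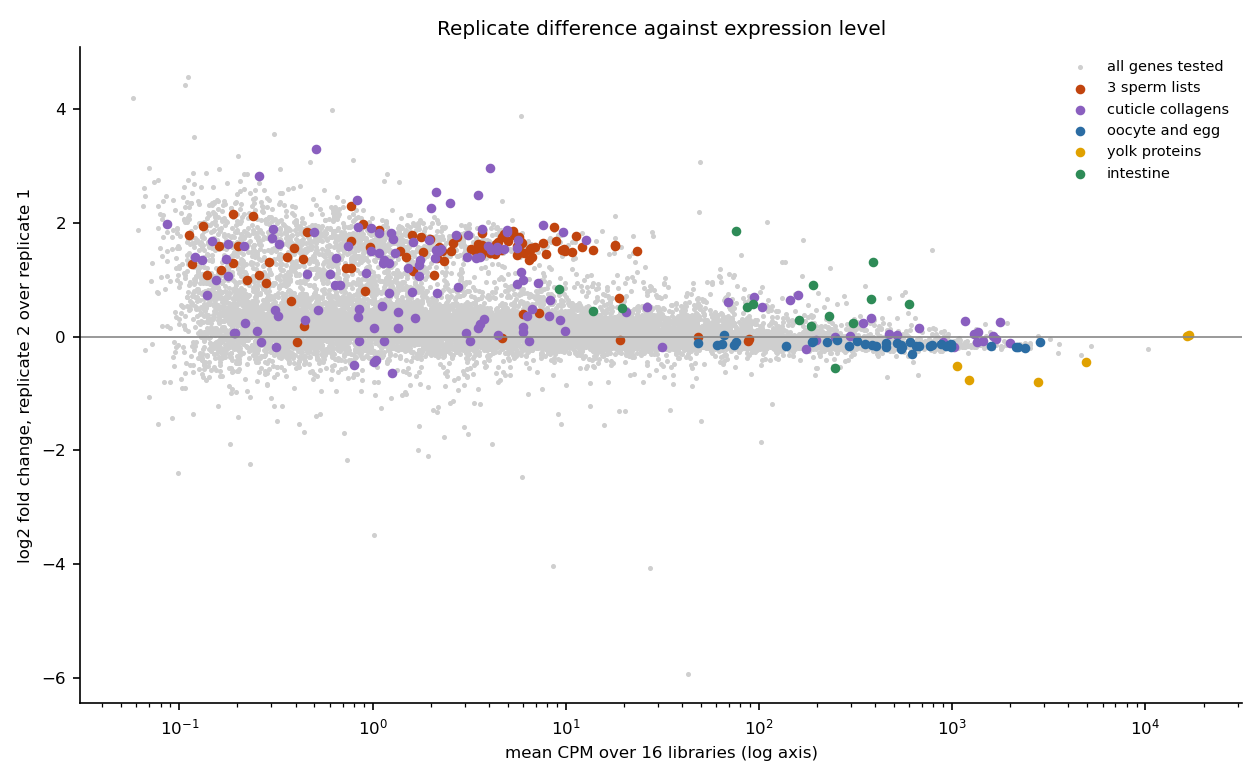
Log2 fold change of replicate 2 over replicate 1 (vertical axis) against mean CPM over the 16 libraries (horizontal log axis) for the 15775 tested genes, with 5 gene groups in colour. Most genes of the major sperm protein and other sperm family lists form a band near their medians of 1.55 and 1.58 at low levels. The spermatid list has a median of 1.16, and its most abundant members, such as *zipt-7.1* (88.6 CPM, -0.05), lie near 0. The oocyte genes lie just under 0 at high levels (median -0.15), and 4 of the 6 yolk genes lie below 0.

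The major sperm proteins, which form the cytoskeleton of the crawling sperm and also signal to the oocyte, were higher in replicate 2 in all 8 pairs. Their summed level was 34.8 to 574 CPM (median 113) in the replicate 2 libraries and 8.14 to 326 CPM (median 38.6) in the replicate 1 libraries. These ranges overlapped widely over the strains and temperatures. Within pairs, the ratio of replicate 2 to replicate 1 was 5.21 in wt, 2.11 in *ets-4*, 1.16 in *daf-16; ets-4* and 4.07 in *pqm-1; ets-4* at 20 °C. At 4 °C it was 4.28, 2.28, 2.71 and 5.96 in the same order of strains. The smallest ratio, that of *daf-16; ets-4* at 20 °C, belonged to the pair whose replicate 1 library had the highest level of all replicate 1 libraries (380 CPM in replicate 2 and 326 CPM in replicate 1). The table held 31 *msp* genes, of which 28 were tested, and 26 rose and 0 fell, with a median log2 fold change of 1.55. *msp-76*, for example, had 2.104 to 42.7 CPM (median 8.05) in replicate 2 and 0.552 to 22.98 CPM (median 2.67) in replicate 1, a log2 fold change of 1.55 (standard error 0.26, adjusted p = 0.00257). *msp-57* rose by 1.67 (standard error 0.25, adjusted p = 0.0017). The copies of this family are nearly identical in sequence, and only uniquely mapped reads were counted, so the share of each copy is uncertain while the sum is less so. At 20 °C alone 0 of the 28 were called by edgeR, although 22 had an unadjusted p under 0.05 and DESeq2 called 17, and at 4 °C alone 25 of 26 were called.

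The other gene families that are transcribed for sperm moved with the *msp* genes. They include the *ssq*, *msd*, *nspd* and *ssp* families, the sperm-specific phosphatases *gsp-3* and *gsp-4*, the sperm chromatin proteins *spch-1* to *spch-3* and the sperm histone variant *htas-1*. The table held 39, of which 37 were tested, and 36 rose and 0 fell, with a median of 1.58. Their summed level was 55.9 to 860 CPM (median 173) in replicate 2 and 17.6 to 429 CPM (median 62.6) in replicate 1, and the ratio within pairs ran from 1.27 to 5.74. *ssq-2* had 5.62 to 98.8 CPM (median 17.9) in replicate 2 and 1.13 to 58.0 CPM (median 6.05) in replicate 1. *gsp-3* rose by 1.76 and *gsp-4* by 1.59, *spch-1* by 1.92 and *htas-1* by 1.72. The exception was *ssp-37*, at -0.02 and not called. The ratio was lower than that of the *msp* genes in the wt pairs, at 3.92 at 20 °C and 3.18 at 4 °C. The summed levels by library show both lists.

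**Figure D2:**
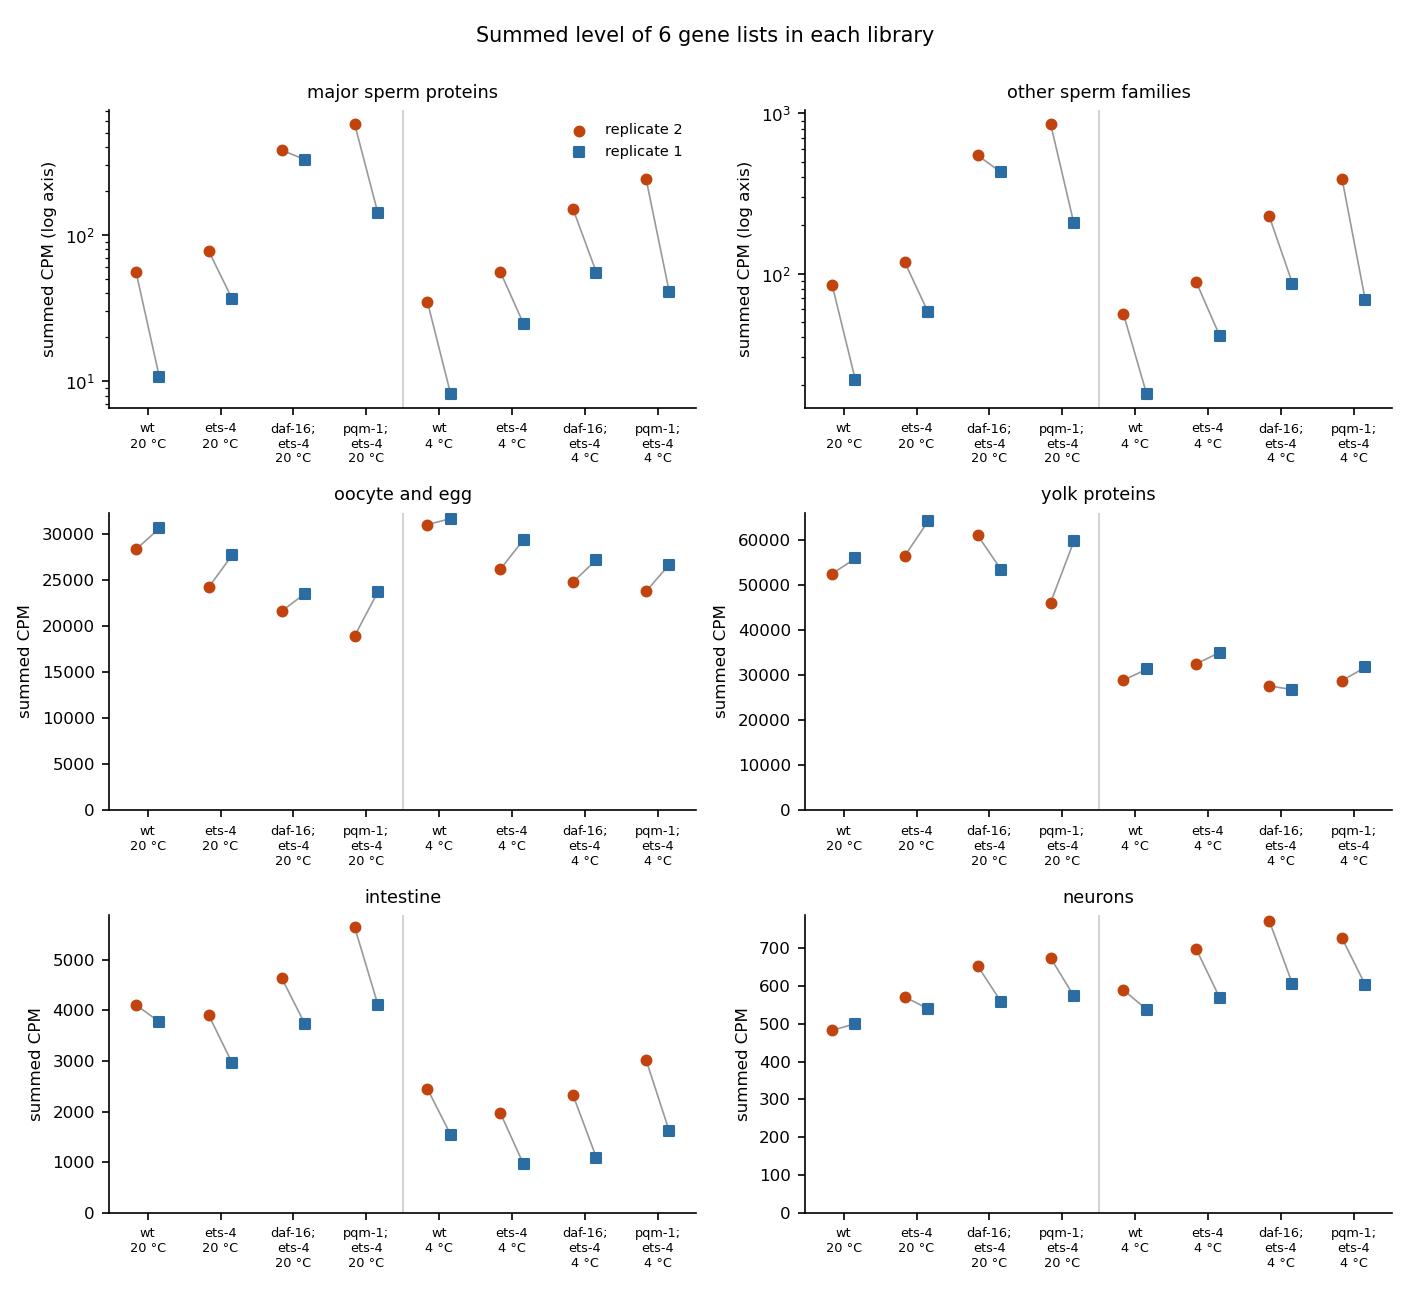
Summed CPM of 6 gene lists (vertical axes, log scale for both sperm lists, linear from 0 for the others) in each of the 16 libraries, with the replicate 2 library of each pair (circle) left of its replicate 1 library (square). Major sperm proteins rise in 8 of 8 pairs by a factor of 1.16 to 5.96, oocyte genes are lower in 8 of 8 pairs by a factor of 0.798 to 0.98, and intestinal genes are higher in 8 of 8 pairs by a factor of 1.09 to 2.14.

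Genes for the assembly, activation and fertilizing function of the spermatid rose in part. Of 32 tested genes, 22 rose and 0 fell, with a median of 1.16. Among those that rose were *spe-8*, a tyrosine kinase of spermatid activation (2.29), *spe-9*, a surface protein that sperm need to enter the egg (1.84), and *spe-11*, a sperm protein that acts in the embryo (1.82). The Argonautes *alg-3* and *alg-4*, which act on mRNAs of spermatogenesis, rose by 1.80 and 1.78, and *fer-1*, which is needed for membranous organelles to fuse with the sperm surface, by 1.08. The most abundant members did not pass the test. *spe-39*, a membrane traffic gene that is also used in other tissues, had 75.9 to 105 CPM (median 82.4) in replicate 2 and 74.6 to 116 CPM (median 88.98) in replicate 1 (log2 fold change -0.08, adjusted p = 0.0891). *spe-44*, a transcription factor that starts the sperm program, had 16.4 to 20.7 CPM (median 18.9) in replicate 2 and 17.4 to 22.5 CPM (median 19.4) in replicate 1 (-0.06, adjusted p = 0.298). *cpb-1* (-0.01, adjusted p = 0.899) and the zinc transporter gene *zipt-7.1* (-0.05, adjusted p = 0.44) were not called either. The summed level of this list, to which these abundant genes contribute most, differed little, at 279 to 417 CPM in replicate 2 and 261 to 318 CPM in replicate 1.

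Genes that decide between sperm and oocyte did not follow the sperm genes, with the exception of *fog-3*, which commits germ cells to the sperm fate and rose by 1.36. Of 20 tested, 1 rose and 9 fell, with a median of -0.09, and with library totals 3 fell. *tra-3*, a calpain protease that promotes the female fate, had 33.02 to 38.6 CPM (median 35.8) in replicate 2 and 41.1 to 47.1 CPM (median 44.3) in replicate 1. All 8 replicate 2 libraries were therefore below all 8 replicate 1 libraries, although the difference was small (log2 fold change -0.31, standard error 0.05, adjusted p = 0.000903). *gld-1*, the translational repressor that is the most abundant member, had 902 to 1183 CPM (median 1076) in replicate 2 and 969.5 to 1274 CPM (median 1114) in replicate 1 and was not called (adjusted p = 0.214). Markers of males were scarce, with a summed level of 3.21 to 4.70 CPM in replicate 2 and 2.82 to 3.45 CPM in replicate 1. This sum was higher in replicate 2 in 7 of 8 pairs, by factors of 0.993 to 1.42. The median log2 fold change of the tested genes was 0.21. *pkd-2*, *lov-1*, *cwp-1*, *cwp-2* and *cwp-3*, which mark male sensory neurons, did not pass the filter, with at most 0.202 CPM in any library, and of the 9 tested genes of that list 0 rose and 0 fell (0 at an unadjusted p under 0.05, and 0 by DESeq2).

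Oocyte, meiotic and cell cycle transcripts were lower in replicate 2 by a small amount that varied between pairs. On the scale of log2(CPM + 0.1), the oocyte median ran from -0.014 in wt at 4 °C to -0.333 in *pqm-1; ets-4* at 20 °C. The meiotic medians ran from -0.032 to -0.208 and the cell cycle medians from -0.04 to -0.292. Of 38 oocyte and egg genes, 0 rose and 27 fell, with a median of -0.15, and their summed level was lower in 8 of 8 pairs, at 18920 to 31010 CPM (median 24520) in replicate 2 and 23520 to 31660 CPM (median 27440) in replicate 1. The largest fall in the list was that of *cpg-3* (-0.31), followed by *chs-1*, the chitin synthase of the eggshell (-0.21), and *cbd-1*, an eggshell protein. *cbd-1* had 1565 to 2705 CPM (median 2224) in replicate 2 and 2082 to 2876 CPM (median 2593) in replicate 1 (-0.21, standard error 0.05, adjusted p = 0.00507). *rme-2*, the yolk receptor of the oocyte, fell by 0.19 and *oma-2*, an RNA-binding protein of the maturing oocyte, by 0.18. Of 44 genes of germline stem cells and meiotic prophase 0 rose and 22 fell (median -0.10). Of 34 genes of the cell cycle and DNA replication, which in an adult are used mainly by the germline, 0 rose and 23 fell (median -0.12). *rnr-2*, a subunit of ribonucleotide reductase, fell by 0.19 (standard error 0.04, adjusted p = 0.00608) and was lower in 8 of 8 pairs. The germline P granule gene *glh-1* fell by 0.12 (adjusted p = 0.0101), while *pgl-1* (-0.05, adjusted p = 0.211) and *csr-1* (-0.01, adjusted p = 0.732) were not called.

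These counts depend on the scaling more than those of the sperm genes do. With library totals, 12 of the oocyte genes, 3 of the meiotic genes and 9 of the cell cycle genes fell, and 1 oocyte gene and 1 meiotic gene rose, while the medians of the lists stayed below 0 (-0.08, -0.03 and -0.05). In that fit 741 of all 15775 tested genes fell and 4074 rose. Without the *pqm-1; ets-4* pairs, 15 oocyte, 10 meiotic and 12 cell cycle genes fell, against 1227 of all 15390 genes tested in that fit. At 20 °C alone, 1 of 38 oocyte, 0 of 44 meiotic and 0 of 34 cell cycle genes were called lower by edgeR. Their medians were -0.175, -0.105 and -0.135, and 131 of all 15405 genes were called lower. At 4 °C alone, 6, 5 and 10 genes of these lists were called lower, against 1255 of all 14571 genes. The medians there were -0.105, -0.043 and -0.087. Of 28 tested genes that are first transcribed in the early embryo, 3 rose and 4 fell, which is below the background in both directions. Their median was -0.22, but -0.07 with a filter of 1 CPM and -0.03 at 4 °C alone. *vet-2* fell by 0.29 (standard error 0.07, adjusted p = 0.0102) and *pes-10* by 0.56, whereas *elt-7* (0.36), *hlh-1* (0.34) and *pha-4* (0.27), which specify intestine, muscle and pharynx in the embryo and are also expressed later in these tissues, rose. Eggs in the mother are part of a whole-worm sample, and the number of eggs per animal was not measured.

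The yolk genes did not move as a group. Yolk proteins are made in the intestine and taken up by oocytes, and their mRNAs are among the most abundant of an adult. *vit-1* was lower by a log2 fold change of -0.80 (standard error 0.08, adjusted p = 0.000265), having 3070 to 4310 CPM in replicate 2 and 5450 to 6040 CPM in replicate 1 at 20 °C. At 4 °C it had 447 to 702 CPM in replicate 2 and 969 to 1130 CPM in replicate 1, so that at each temperature all replicate 2 libraries were below all replicate 1 libraries. *vit-3* fell by 0.76, *vit-4* by 0.52 and *vit-5* by 0.45 (standard error 0.10, adjusted p = 0.00648). The most abundant, *vit-2* and *vit-6*, did not differ by the test (log2 fold changes 0.01 and 0.03, adjusted p = 0.849 and 0.734). *vit-2* had 12610 to 21510 CPM in replicate 2 and 12120 to 21150 CPM in replicate 1. The 4 calls held under all 3 other scalings and without the *pqm-1; ets-4* pairs. Sequences of *vit-3*, *vit-4* and *vit-5* are close to each other, so that the split of reads among these copies is uncertain.

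Intestinal genes were higher in replicate 2. Of 15 in the list, 12 rose and 1 fell, with a median of 0.53, and the summed level was higher in 8 of 8 pairs, at 1974 to 5649 CPM (median 3460) in replicate 2 and 955 to 4112 CPM (median 2284) in replicate 1. *pgp-1*, a membrane pump of the P-glycoprotein family, had 13.9 to 299 CPM (median 76.3) in replicate 2 and 6.16 to 136.5 CPM (median 18.98) in replicate 1 and rose by 1.85 (standard error 0.30, adjusted p = 0.00306). The cathepsin B-like protease gene *cpr-4* had 323 to 918 CPM (median 506) in replicate 2 and 90.9 to 439 CPM (median 211) in replicate 1 (1.30, standard error 0.11, adjusted p = 0.000156). The aspartyl protease gene *asp-1* rose by 0.57 (standard error 0.11, adjusted p = 0.0038) and *elt-2*, the GATA factor of the intestine, by 0.83. The gene that fell was *fat-6*, a fatty acid desaturase (-0.56). *act-5*, the actin of intestinal microvilli, was not called over all libraries (0.66, adjusted p = 0.0718) but had 417 to 558 CPM in replicate 2 and 143 to 272 CPM in replicate 1 at 4 °C, where it rose by 1.31 (adjusted p = 0.00669). At 20 °C its log2 fold change was 0.03 (adjusted p = 0.805), and the difference between both temperatures passed its own test (adjusted p = 0.00772).

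Other somatic tissues were higher in replicate 2 by less. Of 27 neuronal genes, 16 rose and 0 fell, with a median of 0.25. *egl-3*, a convertase that cuts neuropeptide precursors, had 39.9 to 69.5 CPM (median 60.6) in replicate 2 and 38.6 to 52.3 CPM (median 47.5) in replicate 1 (0.29, standard error 0.05, adjusted p = 0.00153). *egl-21*, the carboxypeptidase that acts after it, rose by 0.22 (adjusted p = 0.00248), whereas *snb-1*, the synaptobrevin gene, did not pass the test (-0.03, adjusted p = 0.537). Of 20 genes of the body wall muscle, 11 rose and 0 fell, with a median of 0.17, among them the myosin heavy chain gene *unc-54* (0.25, standard error 0.05, adjusted p = 0.00441) and the tropomyosin gene *lev-11* (0.15, adjusted p = 0.0104). In the pharynx, 12 of 19 tested genes rose and 1 fell, with a median of 0.33. The pharyngeal myosin gene *myo-2* rose by 0.35 (adjusted p = 0.00734), and the scarce *abu-1* and *abu-6* (mean 0.177 and 0.206 CPM) rose by 2.70 and 2.74. Without the *pqm-1; ets-4* pairs 1 pharyngeal gene rose, as did 5 of muscle and 8 of neurons, with no median changing sign. In that fit 1839 of all 15390 tested genes rose. At 4 °C alone, 2 of 16 pharyngeal genes, 11 of 20 of muscle and 13 of 27 of neurons rose, against 16.5% of all genes. The summed pharyngeal level was higher in replicate 2 in 6 of 8 pairs, with ratios of 0.991 at 20 °C and 0.963 at 4 °C in wt. In the somatic gonad, 6 of 13 genes rose and 1 fell (median 0.25). The sheath gap junction gene *inx-8* was the one that fell (-0.12, adjusted p = 0.0112), and *fln-1*, which encodes a filamin of the spermatheca, was not called (0.05, adjusted p = 0.354).

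Cuticle collagens differed most in the *pqm-1; ets-4* pairs, and what these pairs contribute to the other tissue lists beyond the counts given without them was not tested. Of 142 tested genes of the family of 176, 53 rose and 3 fell, with a median of 0.89. By pair, the median of their differences on the scale of log2(CPM + 0.1) was 2.07 at 20 °C and 1.24 at 4 °C in *pqm-1; ets-4*, against 0.01 to 0.37 in the other 6 pairs. Without the *pqm-1; ets-4* pairs 21 rose and 1 fell, with a median of 0.31, against 1839 and 1227 of all 15390 genes tested in that fit. The 4 most abundant collagens differed little and not in 1 direction. *col-124* rose by 0.26 (adjusted p = 0.0205), with 956 to 2735 CPM in replicate 2 and 685 to 2893 CPM in replicate 1, and was higher in 7 of 8 pairs. *col-119* had 1305 to 2096 CPM in replicate 2 and 1116 to 2331 CPM in replicate 1 (0.01, adjusted p = 0.878), *col-122* was not called either (-0.04, adjusted p = 0.423), and *col-181* fell by 0.12 (adjusted p = 0.0269). The summed collagen level was higher in replicate 2 in only 5 of 8 pairs, by factors of 0.918 to 1.13. A larger rise was that of the scarce *col-161*, with 0.0266 to 32.3 CPM (median 1.09) in replicate 2 and 0 to 4.10 CPM (median 0.289) in replicate 1 (2.50, standard error 0.48, adjusted p = 0.00455). In *pqm-1; ets-4* at 20 °C it had 32.3 CPM in replicate 2 and 4.10 CPM in replicate 1. *col-19*, the standard marker of the adult cuticle, rose by 0.27 (standard error 0.06, adjusted p = 0.0055), with 656 to 1932 CPM in replicate 2 and 466 to 1965 CPM in replicate 1. Of 30 genes of the molting cycle 5 rose (16.7%) and 0 fell, which is below the background in both directions, with a median of 0.38. By pair, their median ran from -0.248 in *ets-4* to 1.21 in *pqm-1; ets-4*, both at 20 °C. It was also below 0 at 4 °C in wt (-0.054) and *ets-4* (-0.057). *nas-37*, a protease that opens the old cuticle, rose by 0.40 (standard error 0.05, adjusted p = 0.000381), while *nhr-23*, a nuclear receptor that drives molting, was not called (-0.10, adjusted p = 0.0742). The order of the pairs differed between sperm and collagen genes: wt at 20 °C had an *msp* median of 2.12 and a collagen median of 0.32, as the plot of medians by pair shows.

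**Figure D3:**
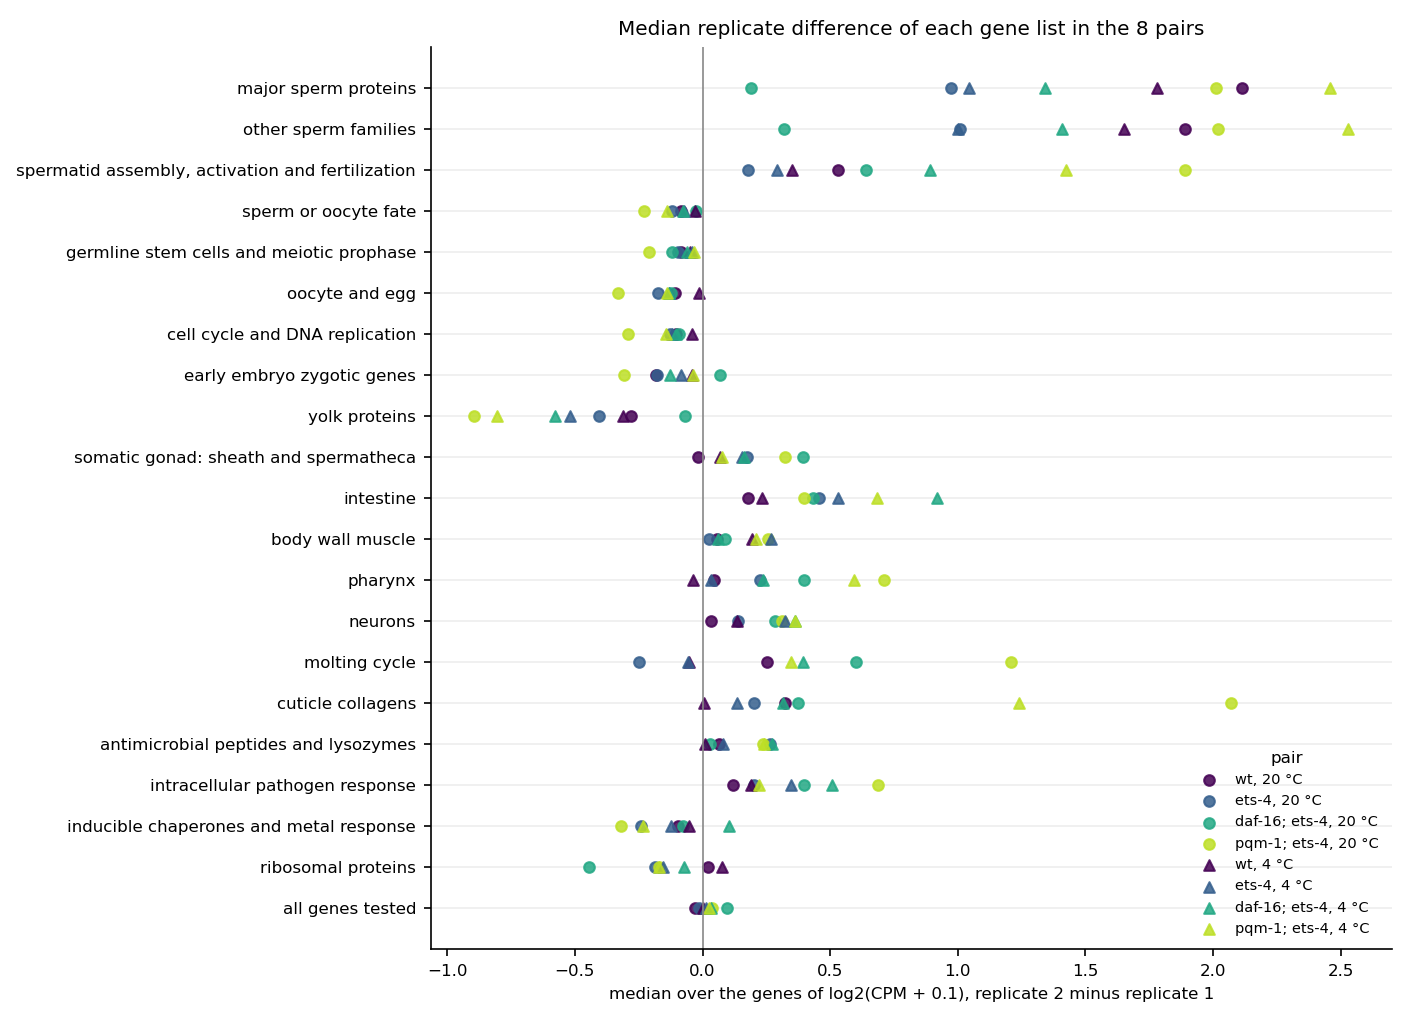
Median over the tested genes of 20 lists, and over all genes tested, of log2(CPM + 0.1) in replicate 2 minus replicate 1 (horizontal axis), with 1 point for each of the 8 pairs (circles 20 °C, triangles 4 °C, colours for strains). The *msp* median is above 0 in 8 of 8 pairs (0.19 to 2.46), oocyte and yolk medians are below 0 in 8 of 8, and the collagen medians of 2.07 and 1.24 belong to the *pqm-1; ets-4* pairs.

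Chaperone and ribosomal genes were lower in replicate 2 in many cases. *hsp-4*, the BiP chaperone of the endoplasmic reticulum, had 382 to 588 CPM in replicate 2 and 499 to 728 CPM in replicate 1 at 20 °C, and 428 to 701 CPM in replicate 2 and 966 to 1200 CPM in replicate 1 at 4 °C. It fell by 0.67 (standard error 0.12, adjusted p = 0.00378), by more at 4 °C (-1.01) than at 20 °C (-0.31, adjusted p of the difference = 0.00265). The constitutive Hsp70 gene *hsp-1* was lower in 8 of 8 pairs, at 2452 to 3885 CPM (median 3125) in replicate 2 and 3477 to 4087 CPM (median 3944) in replicate 1 (-0.30, standard error 0.06, adjusted p = 0.00248). Of the 16 genes of this list 3 rose and 6 fell, and the median of -0.07 changed sign with library totals (0.001) and with a filter of 1 CPM (0.01). Of 78 ribosomal protein genes 2 rose and 39 fell, with a median of -0.14 (-0.08 with library totals, where 2 rose and 2 fell). On the scale of log2(CPM + 0.1), their median was 0.02 at 20 °C and 0.077 at 4 °C in the wt pairs. In the pairs of the mutant strains it ran from -0.071 to -0.444. Of the 78 genes, 4 were lower in 8 of 8 pairs. At 20 °C alone 0 of 78 were called in either direction, and at 4 °C alone 2 of 77 rose and 1 fell. Without the *pqm-1; ets-4* pairs 0 ribosomal genes were called by edgeR (34 at an unadjusted p under 0.05). Of 9 tested small heat shock proteins 2 rose and 2 fell.

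Genes of defence were mixed. Of 61 tested genes for antimicrobial peptides and lysozymes, 23 rose and 11 fell, with a median of 0.22. *irg-7*, a gene of the intestinal response to infection, had 386 to 529 CPM (median 478) in replicate 2 and 258 to 391 CPM (median 286) in replicate 1, a rise of 0.64 (standard error 0.08, adjusted p = 0.000648). The invertebrate lysozyme gene *ilys-5* rose by 0.79 (adjusted p = 0.0273). *spp-5*, which encodes a saposin-like antimicrobial peptide, fell by 0.34 (adjusted p = 0.00109). Of 27 tested genes of the intracellular pathogen response, 9 rose and 0 fell (median 0.41, and 0.14 with a filter of 1 CPM), among them *pals-23* (0.94, standard error 0.09, adjusted p = 0.000156). *skr-3*, the most abundant member, was not called (-0.01, adjusted p = 0.903). Of 29 tested core histone genes 3 rose and 2 fell.

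The largest rise by the naming rule was that of *R08F11.4*, with 5.84 to 20.9 CPM (median 8.499) in replicate 2 and 0.394 to 1.25 CPM (median 0.573) in replicate 1. No library of either replicate came near the other group, and the log2 fold change was 3.89 (standard error 0.17, adjusted p = 6.79e-07). The cytochrome P450 gene *cyp-13A5* had 8.54 to 15.1 CPM in replicate 2 and 2.44 to 5.44 CPM in replicate 1 at 20 °C. At 4 °C it had 63.0 to 226 CPM in replicate 2 and 5.11 to 22.9 CPM in replicate 1, and over all libraries it rose by 3.07 (standard error 0.55, adjusted p = 0.00466). Its relative *cyp-13A7*, at a lower level, had 0.479 to 3.19 CPM (median 0.91) in replicate 2 and 0.0246 to 0.124 CPM (median 0.0509) in replicate 1, with no overlap. *clc-11*, a claudin-like gene that was nearly silent at 20 °C (at most 0.398 CPM), had 29.5 to 83.9 CPM in replicate 2 and 6.46 to 22.2 CPM in replicate 1 at 4 °C (2.12, standard error 0.24, adjusted p = 0.000599). The other genes named by this rule were *grd-6*, *R09E10.2*, *col-161*, *C18E9.8*, *M05B5.1*, *T08B6.9* and *C05C12.5*, with rises of 2.11 to 2.74.

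The largest falls by the same naming rule were those of a pair of neighbouring genes, *pud-3* and *pud-4*. *pud-3* had 10.3, 6.03, 0.861 and 1.84 CPM in replicate 2 (wt, *ets-4*, then the double mutants with *daf-16* and with *pqm-1*) and 58.1, 178, 16.6 and 33.2 CPM in replicate 1 at 20 °C. At 4 °C it had 3.28, 1.75, 0.111 and 1.28 CPM in replicate 2 and 27.5, 61.6, 9.80 and 25.1 CPM in replicate 1. Every pair thus differed in the same direction, while the groups overlapped narrowly over all strains (log2 fold change -4.07, standard error 0.36, adjusted p = 0.000407). *pud-4* fell by 4.03 (standard error 0.34, adjusted p = 0.000268). *asm-3*, which encodes an acid sphingomyelinase, had 0.0266 to 0.253 CPM (median 0.163) in replicate 2 and 0.407 to 4.11 CPM (median 1.44) in replicate 1, again with no overlap (-3.48, standard error 0.32, adjusted p = 9.24e-05). The P450 genes *cyp-35A5* and *cyp-35C1* fell by 2.099 and 1.55, in contrast to *cyp-13A5*. The acid phosphatase gene *pho-11* had 12.7 to 46.03 CPM (median 24.3) in replicate 2 and 28.9 to 115.1 CPM (median 68.5) in replicate 1 (-1.49, standard error 0.14, adjusted p = 0.000381). *oac-3*, *T16G1.7*, *irg-4* and *F42A10.7* fell by 1.54 to 2.46.

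**Figure D4:**
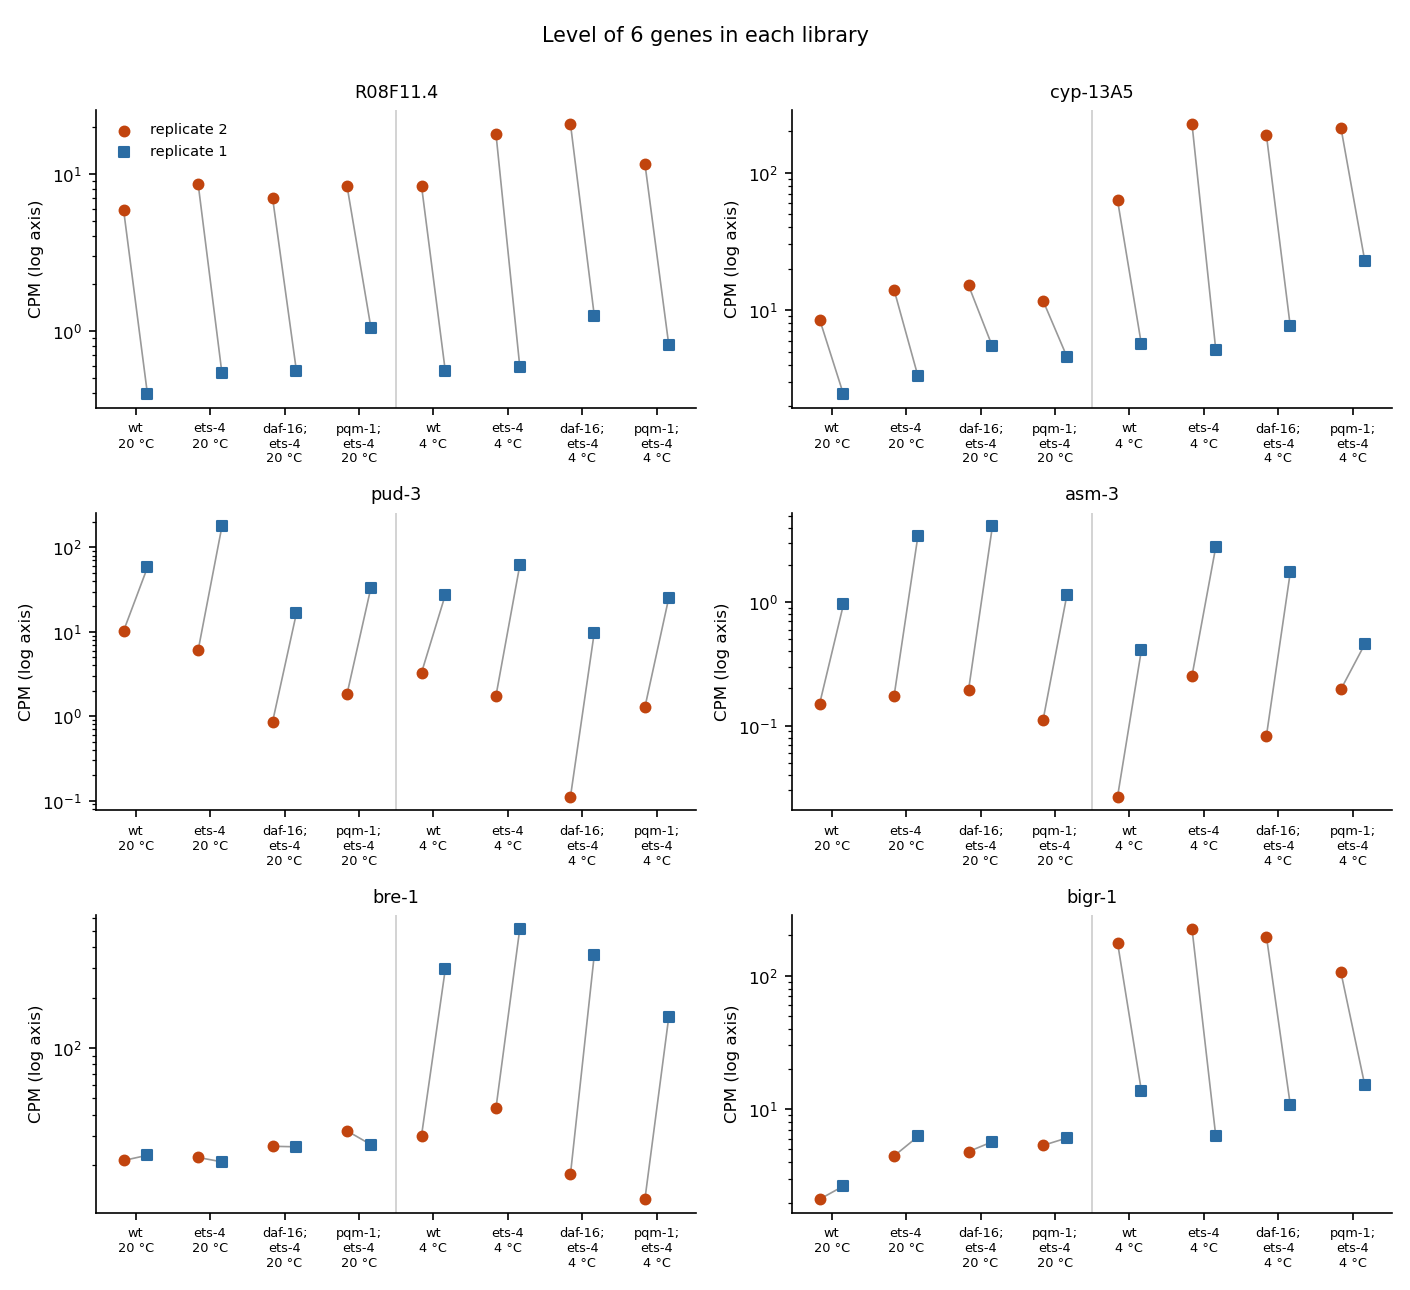
CPM (vertical log axes) of 6 genes in each library, with the replicate 2 library of each pair (circle) left of its replicate 1 library (square). *R08F11.4* and *cyp-13A5* are higher and *pud-3* and *asm-3* lower in replicate 2 in 8 of 8 pairs, while *bre-1* and *bigr-1* differ strongly at 4 °C only (*bre-1* 12.5 to 43.9 CPM in replicate 2 and 153 to 518 CPM in replicate 1).

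Over all tested genes, 1863 (11.8%) were higher in replicate 2 in 8 of 8 pairs and 1697 (10.8%) lower. In 14 genes (0.0887%) all 8 replicate 2 libraries were above all 8 replicate 1 libraries, among them *R08F11.4*, *cyp-13A7*, the saposin-like gene *spp-18* and the lectin-like genes *clec-47* and *clec-89*. In 4 genes (0.0254%) they were all below: *asm-3*, *tra-3*, *Y47D3A.21* and *mrps-22*, a protein of the mitochondrial ribosome. *spp-18* had 14.1 to 32.7 CPM (median 26.6) in replicate 2 and 9.33 to 13.9 CPM (median 11.38) in replicate 1. *mrps-22* had 69.5 to 76.2 CPM (median 72.9) in replicate 2 and 78.1 to 97.7 CPM (median 82.8) in replicate 1. By a 2-fold rule in each of the 8 pairs, with counts scaled to the mean library total and 8 added, 12 genes were higher and 2 lower. The 2 lower ones were *pud-3* and *pud-4*, and the 12 included *R08F11.4*, *cyp-13A5*, *cyp-13A7*, *pgp-1*, *lys-10*, *clec-73* and *alg-3*. With a pseudocount of 1 the rule gave 39 and 4 genes.

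At 20 °C, before any cold, 1090 of 15405 genes (7.08%) were called higher in replicate 2 and 131 (0.85%) lower, and at 4 °C 2402 of 14571 (16.5%) were higher and 1255 (8.61%) lower. The share of higher genes among the calls depended on the scaling and the tool: it was 89.3% at 20 °C (62.8% by DESeq2), and 65.7% at 4 °C (53.5% with DESeq2's size factors in edgeR and 78.1% with library totals). These are separate sets of 8 libraries. The log2 fold changes at both temperatures had a correlation of 0.75 across 11888 genes. These were tested at both temperatures and had at least 1 CPM on average over the 16 libraries. Genes are not independent replicates, and libraries of a strain and number may share a culture. Among the 14251 genes tested at both temperatures, 1138 were called at 20 °C, of which 65.4% were also called at 4 °C, and 3576 were called at 4 °C, of which 20.8% were also called at 20 °C. Of the 744 genes called at both, 724 differed in the same direction. Of the 1138 called at 20 °C, 85 had an estimate of the opposite sign at 4 °C. Of the 3576 called at 4 °C, 352 had the opposite sign at 20 °C. The *msp* median was 1.30 at 20 °C and 1.80 at 4 °C. The differences of any 2 pairs had a correlation of 0.306 to 0.769 over 11954 genes, in all 28 combinations. The counts at 20 °C rested on few pairs, since without 1 library of *pqm-1; ets-4* or *ets-4* they were 330 to 458 higher and 34 to 69 lower. At 4 °C they were 1120 to 1123 higher and 353 to 374 lower without 1 library of *daf-16; ets-4*.

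The replicate difference itself differed between temperatures, with a more positive log2 fold change at 4 °C than at 20 °C in 148 genes (0.938%) and a more negative one in 132 (0.837%). *bre-1*, which encodes a dehydratase for the sugar nucleotide GDP-fucose, had 12.5 to 43.9 CPM in replicate 2 and 153 to 518 CPM in replicate 1 at 4 °C. At 20 °C all 8 libraries lay between 20.9 and 32 CPM. All 4 replicate 1 libraries at 4 °C were thus above every other library (difference of log2 fold changes -3.77, standard error 0.21, adjusted p = 4.98e-05). *bigr-1* showed the reverse, with 177, 225, 196 and 106 CPM in replicate 2 and 13.8, 6.26, 10.8 and 15.2 CPM in replicate 1 at 4 °C, against 2.12 to 5.36 CPM in replicate 2 and 2.66 to 6.25 CPM in replicate 1 at 20 °C (4.21, adjusted p = 0.00736). *T16G1.6* behaved likewise at lower levels, with 4.12 to 42.8 CPM in replicate 2 and 0.288 to 0.968 CPM in replicate 1 at 4 °C (5.09, adjusted p = 1.58e-05).

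Other genes were low at 4 °C in replicate 2. *F13B12.3* had 0.0799 to 0.277 CPM in replicate 2 and 1.60 to 4.88 CPM in replicate 1 at 4 °C, against 1.86 to 5.997 CPM in replicate 2 and 3.10 to 5.13 CPM in replicate 1 at 20 °C (-4.26, adjusted p = 3.13e-05). The kinase gene *flr-4* had 0.173 to 0.354 CPM in replicate 2 and 1.45 to 2.47 CPM in replicate 1 at 4 °C, while at 20 °C both replicates had 3.62 to 6.37 CPM (-2.99, adjusted p = 6.03e-05). *ugt-15*, a gene for a glucuronosyltransferase, differed at 20 °C instead, with 0.0664 to 0.197 CPM in replicate 2 and 0.470 to 1.55 CPM in replicate 1 there and 2.18 to 3.80 CPM in replicate 2 and 1.22 to 2.51 CPM in replicate 1 at 4 °C (3.77, adjusted p = 0.000363). In each of these 6 genes the 4 strains differed in the same direction at the temperature where the replicates stood apart, and the contrast between temperatures is that of 4 pairs against 4 pairs.

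**Figure D5:**
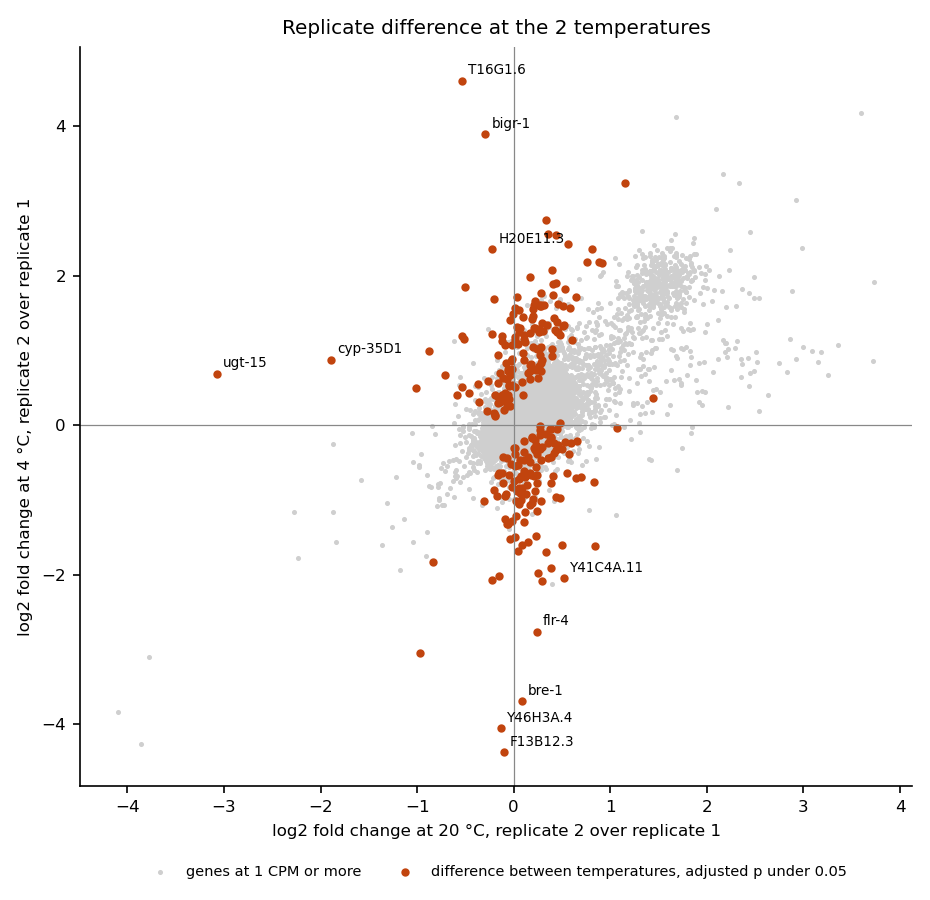
Log2 fold change of replicate 2 over replicate 1 at 4 °C (vertical axis) against that at 20 °C (horizontal axis) for genes with at least 1 CPM on average, with genes whose difference between temperatures passed an adjusted p of 0.05 in colour and the 10 named ones labelled. The log2 fold changes at both temperatures have a correlation of 0.75. *bigr-1* and *T16G1.6* lie high and *bre-1*, *F13B12.3*, *Y46H3A.4* and *flr-4* low.

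Differences between strains in the replicate effect passed the test in 4 genes (0.0254%) by edgeR, with 1636 at an unadjusted p under 0.05 and 151 called by DESeq2's likelihood ratio test. The cuticle collagen gene *bli-6* was higher in replicate 2 by 3.01 and 2.35 on the scale of log2(CPM + 0.1) in the *pqm-1; ets-4* pairs at 20 °C and 4 °C, and by 0.16 to 0.47 in the other 6 pairs (adjusted p = 0.0222). *cpr-1*, a cathepsin B-like protease gene of the intestine, was higher by 0.91 to 1.33 in the 6 mutant pairs and by 0.08 and 0.23 in the wt pairs (adjusted p = 0.0416). *F46F2.3* was lower by 1.07 and 1.20 in the *pqm-1; ets-4* pairs and had -0.19 to 0.24 in the other 6 pairs (adjusted p = 0.0149), and *C30G12.2* varied in sign between strains (adjusted p = 0.00669). The number of such genes was unstable: without 1 library it ranged from 0 to 884, the highest values arising without a *daf-16; ets-4* library at 4 °C (789 and 884) and 0 without a library of wt at either temperature or of *pqm-1; ets-4* at 20 °C (1161 to 1387 genes at an unadjusted p under 0.05).

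The calls were unevenly spread over the chromosomes. On X, 18.3% of 2221 tested genes rose and 7.43% fell, and on V, 818 of 3146 rose and 454 (14.4%) fell. On I, 19.5% rose and 24.3% fell, and on III 17.6% and 24.7%. *daf-16* did not differ between replicates (0.10, standard error 0.09, adjusted p = 0.416). *ets-4* was higher in replicate 2 in 7 of 8 pairs (0.68, standard error 0.15, adjusted p = 0.00799), and in the *ets-4* mutant strains at 20 °C it had 159 to 202 CPM in replicate 2 and 76.9 to 107 CPM in replicate 1. In wt at 20 °C it had 25.9 CPM in replicate 2 and 26.3 CPM in replicate 1, and at 4 °C 84.5 CPM in replicate 2 and 60.3 CPM in replicate 1, against 8.83 to 12.8 CPM in replicate 2 and 4.35 to 11.5 CPM in replicate 1 of the mutant strains. *pqm-1* was higher in replicate 2 in 7 of 8 pairs (0.47, standard error 0.14, adjusted p = 0.0282). In *pqm-1; ets-4* at 20 °C it had 16.2 CPM in replicate 2 and 5.98 CPM in replicate 1, the lowest level of each replicate. At 4 °C the same strain had 143 CPM in replicate 2 and 150 CPM in replicate 1, against 223 to 269 CPM in replicate 2 and 187 to 221 CPM in replicate 1 of the other strains, so that transcripts of the mutated gene were counted in this strain.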

How the data were processed

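Poly-A RNA of pooled adults was sequenced as single-end reads. The authors mapped the reads to WBcel235 with STAR, kept uniquely mapped ones and used summarizeOverlaps to count reads on the exons of protein-coding genes. The deposited values are raw counts, not normalized, for 20447 genes and 16 libraries, of which 862 genes had no read. The annotation release and the strand setting of the counting are not given in the sources used here, so that overlapping genes and near-identical copies are uncertain. Gene positions came from Ensembl release 115, which held 98.6% of the genes.

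The counts were tested with edgeR 4.0.16 (R 4.3.3; TMM, filterByExpr, robust quasi-likelihood fits, Benjamini-Hochberg adjustment), with strain and temperature group plus replicate number as terms, over all 16 libraries, at each temperature, and with terms for replicate by temperature and replicate by strain. The scripts were tested on simulated counts. The paired design was used because the comparison was defined within strain and temperature. The replicate differences of the pairs, correlated after the fit, went together in all 28 combinations (correlations 0.306 to 0.769). Summed levels, pair differences and plots were made in Python 3.11.15. Alternatives were other scalings, filters, DESeq2 1.42.0, an unpaired fit, a test against a 1.5-fold change, thinned counts, and leaving out libraries or strains. Counts cover sampling error only, and genes with few reads are imprecise.

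The comparison, the gene lists and the tests were chosen with earlier results of these data known, and the lists are therefore not independent evidence. Named genes were the 10 largest rises and 10 largest falls with an adjusted p under 0.05, at least 1 CPM and the same direction in 8 of 8 pairs, up to 4 most abundant tested genes per list, the 5 largest differences between temperatures in each direction, and the 3 mutated genes. Other members named with their values, the genes that did not overlap, those of the 2-fold rule and those of the strain term were chosen after their values were seen. A list of mitochondrial genome genes matched no name and was replaced by genes on that chromosome. Sequences were not used here.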

Additional observations from a re-analysis of the deposited data

Results flagged for a closer look

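The replicate difference differed between both temperatures by the interaction test in 16 of the named genes, each value being the log2 fold change of replicate 2 over replicate 1 at 4 °C minus that at 20 °C. Positive values were those of *T16G1.6* (5.09), *bigr-1* (4.21), *ugt-15* (3.77), *cyp-35D1* (2.78), *H20E11.3* (2.58), *act-5* (1.28), *ilys-5* (1.24) and *asp-1* (0.59). Negative values were those of *F13B12.3* (-4.26), *Y46H3A.4* (-3.85), *bre-1* (-3.77), *flr-4* (-2.99), *Y41C4A.11* (-2.60), *oac-3* (-2.08), *hsp-4* (-0.69) and *skr-3* (-0.36). Of these, *Y41C4A.11* had 56.7 to 128 CPM in replicate 2 and 302 to 484 CPM in replicate 1 at 4 °C, and 1.77 to 7.56 CPM in replicate 2 and 1.61 to 5.07 CPM in replicate 1 at 20 °C. *ilys-5* had 305 to 499 CPM in replicate 2 and 103 to 212 CPM in replicate 1 at 4 °C, and 798 to 1030 CPM in replicate 2 and 769 to 915 CPM in replicate 1 at 20 °C. 

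The replicate difference differed between strains by the test of the 3 strain terms in 4 genes, with adjusted p from edgeR of 0.0222 for *bli-6*, 0.0416 for *cpr-1*, 0.0149 for *F46F2.3* and 0.00669 for *C30G12.2*. *C30G12.2* was higher in replicate 2 by 1.04 and 0.99 on the scale of log2(CPM + 0.1) in the *pqm-1; ets-4* pairs and had -0.65 to -0.36 in the wt and *daf-16; ets-4* pairs.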

How the results depend on the processing

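Of the 128 named genes 77 were called, and all 77 kept their direction in 2307 values from 30 alternatives. Of these values 375 missed the threshold, and 75 of the 77 genes lost the call in at least 1 alternative. This was so for 72 genes in a fit without the pairing, for 14 under another scaling and for 14 where 1 library was left out. It was so for 31 where a strain was left out (26 without *pqm-1; ets-4* and 23 without *ets-4*). Many small differences also missed the threshold against a 1.5-fold change. With library totals, 741 genes were lower over all libraries, 724 at 4 °C, 489 in 8 of 8 pairs and 1 without overlap. With DESeq2's size factors in edgeR, 236 genes were lower at 20 °C and 2030 at 4 °C. At 20 °C, 204 genes were lower without a filter, 82 with a filter of 1 CPM and 729 by DESeq2, and with that filter 9 genes lay above without overlap. Against a 1.5-fold change, 948 genes were higher and 27 lower over all libraries, 29 and 11 at 20 °C, and 604 and 59 at 4 °C. DESeq2 gave 422 genes for the difference between temperatures and 151 for that between strains. Without the *ets-4* pairs 1762 genes were lower, and without the *pqm-1; ets-4* pairs 1839 were higher and 1227 lower. The 2-fold rule gave 39 and 4 genes with a pseudocount of 1, and 7 higher genes with TMM-scaled sizes. Of 719 list medians under alternatives, 2 had the opposite sign, both of the chaperone list.

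The pairing by strain and temperature decided the counts, since a fit with no replicate block (replicate alone in the design) gave 7 higher and 2 lower genes over all libraries, 129 and 62 at 4 °C, and 1 and 0 at 20 °C (edgeR, with 1043 at an unadjusted p under 0.05). With replicate and temperature in the design 228 genes were higher and 76 lower.

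Leaving out 1 library, which also removes the comparison its partner gave, left 2721 to 3304 higher and 1791 to 3063 lower genes over all libraries, the lowest without a *pqm-1; ets-4* library. At 20 °C it left 330 to 1810 higher and 34 to 255 lower, the highest without a *daf-16; ets-4* library. At 4 °C it left 1120 to 2445 higher and 353 to 2021 lower, the highest without a wt library. It left 157 to 289 genes for the difference between temperatures, the lowest without an *ets-4* library at 20 °C, and 0 to 884 for that between strains. The causes were not tested. Genes with few reads limit the precision, and 862 genes had no read.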

Other observations

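Gene name families that were not lists of their own also leaned to 1 side, although some *flp*, *nep* and *clec* genes also belonged to a list. All 67 name prefixes with at least 20 tested genes were counted after the data were seen, and the values are descriptions without a test, to be read against 21.9% higher and 17.7% lower over all genes. Of 30 *flp* genes, which encode FMRFamide-like neuropeptides, 19 were called higher in replicate 2 and 0 lower (median log2 fold change 0.28). Of 23 *nep* genes, a family of neprilysin-like peptidases, 16 were higher and 0 lower (median 0.60). Of 141 *clec* genes, which encode C-type lectin-like proteins, 68 were higher and 8 lower (median 0.49). Of 24 *clc* genes, the claudin-like family, 13 were higher and 0 lower. In the other direction, 20 of 25 *eif* genes for translation initiation factors were lower and 0 higher (median -0.14). The same held for 18 of 26 *npp* genes of the nuclear pore (median -0.13), 14 of 20 *mdt* genes of the Mediator complex (median -0.13) and 23 of 40 *mrpl* genes of the mitochondrial ribosome (median -0.13). The prefixes were counted with TMM scaling only. With library totals, 741 of all 15775 genes were called lower (2798 with TMM), and the median of all genes was 0.11 instead of 0.04. Whether these small falls would be called under that scaling was not tested.

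The differences of single genes over the 8 pairs were set against those of the *msp* median, again after the data were seen. Of 625 genes with at least 1 CPM and an estimate of at least 2-fold, 113 had a correlation of at least 0.9 with it over the 8 pairs, of which 40 were in the 3 sperm lists and 73 were not. The *msp* genes themselves form this median, so that their presence among the 40 follows from the choice. None of the 113 lay on X, which held 13.9% of the 11954 genes with at least 1 CPM. The share of X among the 625 genes was not counted. With the collagen median, 44 genes had such a correlation, 3 of them on X and 0 shared with the 113.

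*Y46H3A.5* had the largest negative estimate of all tested genes, -5.93 (adjusted p = 0.0008), but did not meet the naming rule because it was lower in 7 of 8 pairs. At 4 °C it had 1.62, 7.74, 1.52 and 0.0494 CPM in replicate 2 (wt, *ets-4*, then the double mutants with *daf-16* and with *pqm-1*) and 109, 269, 276 and 24.1 CPM in replicate 1. At 20 °C it was at most 0.243 CPM in every library. The gene lies on chromosome V (1811345 to 1814884, minus strand, WBcel235), next to *Y46H3A.4* (1809557 to 1811135, minus strand), which also differed at 4 °C, with 0.173 to 0.354 CPM in replicate 2 and 1.03 to 10.4 CPM in replicate 1. The heat shock genes *hsp-16.2* and *hsp-16.41* lie within the same stretch and had at most 0.373 CPM in replicate 2 and 0.552 CPM in replicate 1 at 4 °C. The neighbour on the other side, *gly-7*, had 96.8 to 127 CPM in replicate 2 and 106 to 128 CPM in replicate 1 at 4 °C.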
